A study of Mus musculus with 8 samples.

Results

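T cell genes encode the parts of T lymphocytes that make them recognise antigen, pass that signal inside the cell and take on a subset identity. The 34 genes described here were taken by symbol from the table of 44422 genes that covers iWAT (inguinal white adipose tissue, a subcutaneous fat depot) and BAT (brown adipose tissue). They fill 35 rows of that table, because Cd28 has a second row on an alternate scaffold that is at 0 in all 8 libraries and was not used. All 34 symbols were found, and the rule that finds them uses symbols and no measured value.

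A T cell recognises antigen with a receptor made of an alpha and a beta chain, whose constant parts are encoded by Trac, Trbc1 and Trbc2, held in the membrane by the CD3 chains and the zeta chain (Cd3d, Cd3e, Cd3g, Cd247). The CD4 and CD8 coreceptors bring the kinase Lck to the receptor, after which Zap70 and the adaptor Lat carry the signal on. Naive T cells circulate between blood and lymphoid organs and are marked by Ccr7, Il7r, Tcf7 and Lef1, whereas regulatory T cells, defined by the transcription factor Foxp3, restrain immune responses and form a resident population in fat.

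RNA-seq libraries came from 4 groups of 2 libraries each: H1.2AKO iWAT, WT iWAT, H1.2AKO BAT and WT BAT. All mice were C57BL/6 males of 10 weeks kept at 22 °C with both H1.2 alleles floxed, and H1.2AKO mice also carried adiponectin-Cre, which removes the linker histone H1.2 from adipocytes, while WT mice (labelled Flox) were without Cre. Cre was thus driven in adipocytes and not in T cells, and RNA of whole tissue was measured. A level can therefore move with the number of T cells, the RNA per T cell or the RNA of other cells, which cannot be told apart. Each library is a pool, of 2 mice by the study's methods and of 3 by the deposited notes, and p-values measure the spread between such pools.

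Summed reads over the listed genes ran from 16118634 to 17480325 per library. The scaling differed by depot, so that 1 read on 1 kb of transcript was worth 0.0435 to 0.0499 FPKM in iWAT and 0.0641 to 0.0689 FPKM in BAT. Hist1h1c, the gene of H1.2, had 2.26 and 1.73 FPKM (fragments per kilobase of transcript, scaled to library depth) in H1.2AKO iWAT, against 23.7 and 24.2 FPKM in WT iWAT, and 0.177 and 1.97 FPKM in H1.2AKO BAT, against 36.8 and 43.3 FPKM in WT BAT, so the labels hold in each tissue. The libraries differ in skeletal muscle RNA, with a summed level of 12 muscle genes of 3155 and 3001 FPKM in H1.2AKO iWAT, against 195 and 4543 FPKM in WT iWAT, and of 129 and 1712 FPKM in H1.2AKO BAT, against 3200 and 3613 FPKM in WT BAT. Its part in the results below was not tested.

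The T cell genes were iWAT genes in these libraries. Their summed level was 563 and 505 FPKM in H1.2AKO iWAT and 433 and 472 FPKM in WT iWAT, against 30.3 and 30.4 FPKM in H1.2AKO BAT and 26.4 and 27.8 FPKM in WT BAT. For 33 of the 34 genes all 4 iWAT libraries lay above all 4 BAT libraries, against 24.4% of all genes above 0 in at least 1 library, and the exception was Il2ra. No gene was at 0 in an iWAT library, whereas 5 were at 0 in at least 1 BAT library and 31 had under 50 reads in every BAT library, so that differences between BAT libraries rest on few reads.

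**Figure D1:**
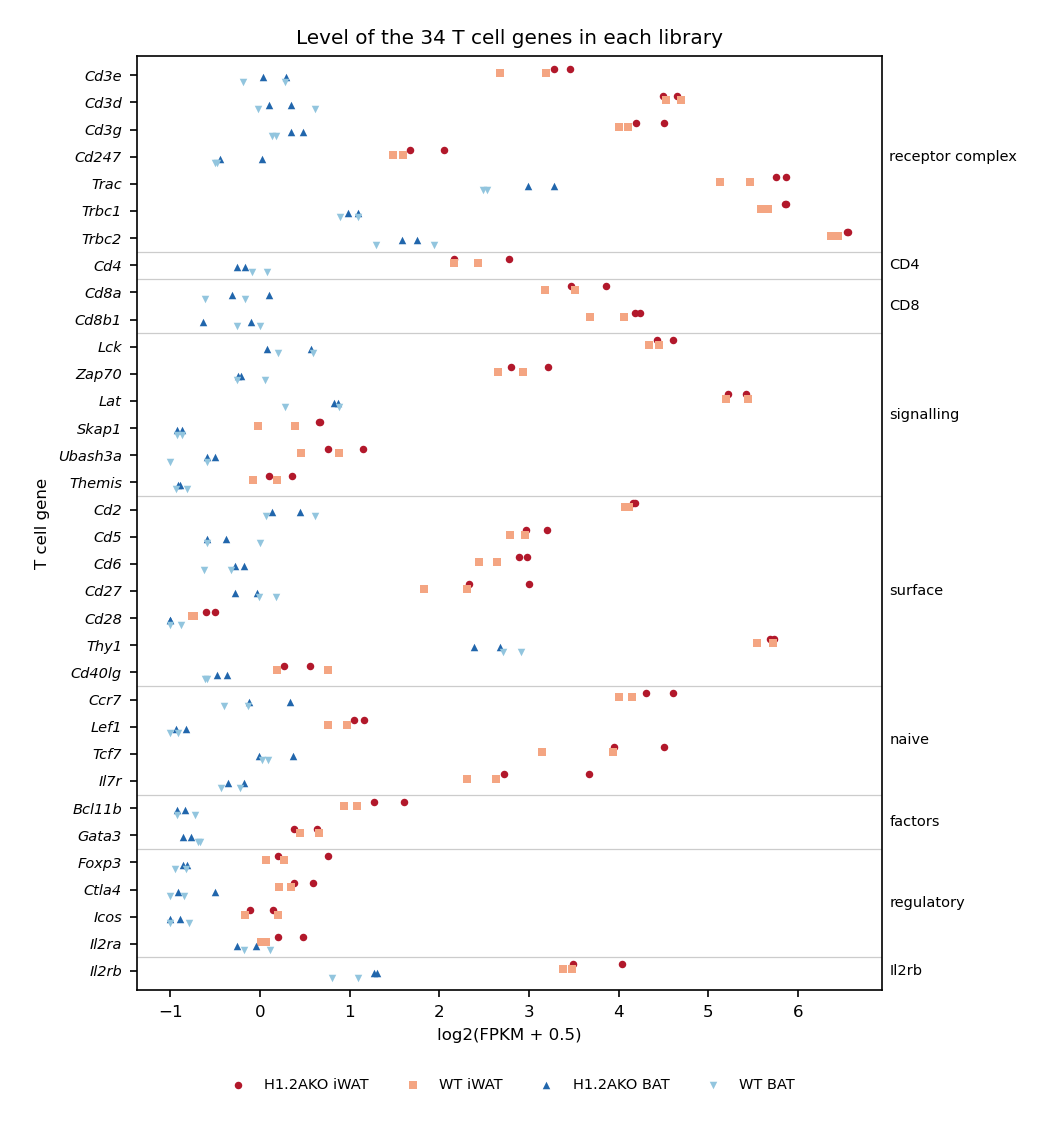
Level of each of the 34 T cell genes as log2(FPKM + 0.5), with 1 point per library, 2 per group, in rows ordered by role. The iWAT libraries lie to the right of the BAT libraries in 33 rows, the points of Il2ra lie close together, and the receptor chain genes Trbc2 and Trbc1, Trac, Thy1 and Lat are the highest rows in iWAT.

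To ask how far the depots differ, iWAT was compared with BAT within each genotype by limma on log2(FPKM + 0.5), with adjusted p under 0.05 as the threshold. Over all genes above 0 in at least 1 library, 18.8% were called higher in iWAT of H1.2AKO mice and 18.7% in iWAT of WT mice. Among the 34 T cell genes 33 were called higher in H1.2AKO mice (all but Il2ra) and 32 in WT mice (all but Il2ra and Cd28), and 0 were called lower. The median log2 fold change over the 34 was 3.00 in H1.2AKO mice and 2.80 in WT mice, against 0.03 over all genes in each. These counts were made without a filter on low values. With a mean of at least 0.5 FPKM required, 29 T cell genes were tested in H1.2AKO mice, of which 28 were called (27.9% of all tested genes), and 28 in WT mice, of which 27 were called (28.1%). Of those tested, 16 in H1.2AKO mice and 15 in WT mice had a BAT mean under 0.5 FPKM, passed through iWAT alone and had to differ. Depot p-values below therefore come from the fit without the filter for every gene whose BAT mean was under 0.5 FPKM, and from the filtered fit for the rest.

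The beta chain of the receptor complex gave some of the largest differences. Trbc2, a constant part of the beta chain, had 93.4 and 93.9 FPKM in H1.2AKO iWAT, 86.5 and 82.2 in WT iWAT, 2.49 and 2.86 in H1.2AKO BAT and 3.33 and 1.95 in WT BAT. Both genotypes lay far above BAT. Its neighbour Trbc1, the alternative constant part, had 58.0 and 57.6 FPKM in H1.2AKO iWAT, 50.4 and 47.6 in WT iWAT, 1.47 and 1.64 in H1.2AKO BAT and 1.36 and 1.63 in WT BAT. The 2 rows are near-identical in sequence and reads can be split between them by the counting, so their sum is the firmer value: 151 and 151 FPKM in H1.2AKO iWAT, 137 and 130 in WT iWAT, 3.96 and 4.50 in H1.2AKO BAT and 4.69 and 3.57 in WT BAT. Both genes were higher in iWAT beyond any spread between replicates, with log2 fold changes for Trbc2 of 4.89 (standard error 0.20, adjusted p = 1.59e-05 by limma) in H1.2AKO mice and 4.79 (0.20, adjusted p = 1.71e-05) in WT mice. For Trbc1 they were 4.83 (standard error 0.10, adjusted p = 7.94e-06 by limma) in H1.2AKO mice and 4.64 (0.10, adjusted p = 4.77e-06) in WT mice, the smallest p among the T cell genes.

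The CD3 chains lay lower than the beta chain rows and followed the same depot pattern. Cd3d had 22.0 and 24.6 FPKM in H1.2AKO iWAT, 25.4 and 22.6 in WT iWAT, 0.573 and 0.773 in H1.2AKO BAT and 1.02 and 0.485 in WT BAT. Cd3g had 22.2 and 17.8 FPKM in H1.2AKO iWAT, 16.7 and 15.6 in WT iWAT, 0.772 and 0.892 in H1.2AKO BAT and 0.633 and 0.599 in WT BAT. Neither gene overlapped between the depots, and the depot difference of Cd3g was, in log2, 3.94 (standard error 0.13, adjusted p = 1.14e-05 by limma) in H1.2AKO mice and 3.89 (0.13, adjusted p = 1.18e-05) in WT mice. Cd3e had 10.5 and 9.18 FPKM in H1.2AKO iWAT, 5.87 and 8.61 in WT iWAT, 0.720 and 0.523 in H1.2AKO BAT and 0.378 and 0.715 in WT BAT. Cd247, the zeta chain that carries most of the signalling motifs, had 3.64 and 2.70 FPKM in H1.2AKO iWAT, 2.29 and 2.52 in WT iWAT, 0.233 and 0.512 in H1.2AKO BAT and 0.216 and 0.205 in WT BAT. Its exons overlap Pou2f1 on the other strand, which had 0.995 and 1.04 FPKM in H1.2AKO iWAT and 0.531 and 0.641 FPKM in H1.2AKO BAT, and since the use of strand in counting is not given in the sources used here, reads of the 2 genes cannot be told apart where they overlap.

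Trac had the lowest ratio of iWAT to BAT among the chains of the receptor complex, with Cd247 next. It had 58.1 and 53.7 FPKM in H1.2AKO iWAT, 34.6 and 43.7 in WT iWAT, 9.17 and 7.43 in H1.2AKO BAT and 5.09 and 5.28 in WT BAT. It was thus the highest T cell gene in H1.2AKO BAT, where the beta chain rows were several times lower. The mean level in iWAT was 6.73 times that in BAT in H1.2AKO mice and 7.55 times in WT mice. For Cd247 the same ratio was 8.50 and 11.4, and for Cd3e 15.9 and 13.3. It was 24.0 and 26.1 for Cd3g, 34.6 and 31.8 for Cd3d, 35.0 and 32.0 for Trbc2 and 37.2 and 32.8 for Trbc1. Set against the summed level of Cd3d, Cd3e and Cd3g, Trac was 1.06 and 1.04 in H1.2AKO iWAT, 0.721 and 0.933 in WT iWAT, 4.44 and 3.40 in H1.2AKO BAT and 2.50 and 2.94 in WT BAT. The sum of Trbc1 and Trbc2 over the same CD3 genes differed far less between the depots, at 2.77 to 2.94 over the iWAT libraries and 1.92 to 2.30 over the BAT libraries. No test was made of these ratios.

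Cd3g, Cd3d and Cd3e are neighbours on chromosome 9 and are shown here by their promoters, since the 3 genes were called in the same direction between the depots, with Cd8a and Il2ra beside them as a gene of the CD8 pair and as the gene that does not follow the depot pattern. Each sequence is a RefSeq promoter of build GRCm38.p6, from 250 bases before to 50 after the start of transcription, written on the strand of the gene. Capitals mark the letters of the motifs, searched on both strands. The ETS motif was searched as AGGAAG and the RUNX motif was searched as TGTGGT. The E protein motif was searched as CAGCTG, while the TCF/LEF motif was searched as CTTTGA and the GATA motif was searched as AGATAA. No motif match overlaps another in these 5 sequences.
Cd3g, chr9:44980382-44980681, - strand: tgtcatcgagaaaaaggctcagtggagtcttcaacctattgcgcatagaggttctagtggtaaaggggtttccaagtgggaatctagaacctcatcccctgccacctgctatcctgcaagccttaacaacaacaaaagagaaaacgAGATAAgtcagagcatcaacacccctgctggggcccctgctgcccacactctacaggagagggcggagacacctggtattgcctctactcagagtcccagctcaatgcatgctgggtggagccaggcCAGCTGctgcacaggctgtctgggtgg
Cd3d, chr9:44981536-44981835, + strand: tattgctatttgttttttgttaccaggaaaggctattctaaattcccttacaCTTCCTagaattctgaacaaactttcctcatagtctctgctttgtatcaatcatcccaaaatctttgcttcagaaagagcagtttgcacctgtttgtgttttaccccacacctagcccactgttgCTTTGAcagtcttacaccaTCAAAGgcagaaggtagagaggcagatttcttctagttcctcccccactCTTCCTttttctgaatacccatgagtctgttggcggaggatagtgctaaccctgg
Cd3e, chr9:45009562-45009861, - strand: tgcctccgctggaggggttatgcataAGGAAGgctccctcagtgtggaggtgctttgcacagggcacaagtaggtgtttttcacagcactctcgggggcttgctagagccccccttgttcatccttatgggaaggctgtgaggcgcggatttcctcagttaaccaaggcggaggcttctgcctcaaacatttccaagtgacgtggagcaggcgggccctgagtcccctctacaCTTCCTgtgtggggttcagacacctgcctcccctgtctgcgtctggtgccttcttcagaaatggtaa
Cd8a, chr6:71373177-71373476, + strand: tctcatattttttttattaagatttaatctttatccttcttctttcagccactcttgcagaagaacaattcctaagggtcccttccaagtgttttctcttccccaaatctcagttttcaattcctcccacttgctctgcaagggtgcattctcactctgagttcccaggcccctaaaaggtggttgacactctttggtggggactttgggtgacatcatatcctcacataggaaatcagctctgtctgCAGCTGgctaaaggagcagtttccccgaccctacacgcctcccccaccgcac
Il2ra, chr2:11642542-11642841, + strand: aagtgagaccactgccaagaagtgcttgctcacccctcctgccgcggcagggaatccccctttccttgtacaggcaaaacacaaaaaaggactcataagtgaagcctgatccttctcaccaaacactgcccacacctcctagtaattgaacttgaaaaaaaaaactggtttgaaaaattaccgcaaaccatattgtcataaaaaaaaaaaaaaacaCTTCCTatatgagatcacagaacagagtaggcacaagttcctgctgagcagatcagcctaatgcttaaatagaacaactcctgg

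Of the 34 genes 20 had an entry in that table, with 29 promoters in all. The ETS letters were in 51.7% of the 29, against 35.4% of all 32851 promoters. TCF/LEF letters were in 24.1% against 16.0%, E protein letters in 20.7% against 16.3%, GATA letters in 13.8% against 11.2% and RUNX letters in 13.8% against 16.8%. A match is a description of letters and no evidence of binding. Without an entry there were Icos, Ccr7, Trbc2, Trbc1, Il2rb, Cd4, Cd6, Thy1, Trac, Cd28, Cd2, Cd8b1, Cd40lg and Skap1.

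The coreceptors divide T cells into helper and cytotoxic lineages, and CD8 genes were well above Cd4 in iWAT. Cd8b1, the CD8 beta chain, had 18.4 and 17.6 FPKM in H1.2AKO iWAT, 12.4 and 16.2 in WT iWAT, 0.146 and 0.433 in H1.2AKO BAT and 0.335 and 0.497 in WT BAT. Cd8a, the alpha chain, had 14.0 and 10.5 FPKM in H1.2AKO iWAT, 8.58 and 10.9 in WT iWAT, 0.572 and 0.305 in H1.2AKO BAT and 0.152 and 0.389 in WT BAT. Cd4, which is also transcribed in some macrophages and dendritic cells, had 6.35 and 3.99 FPKM in H1.2AKO iWAT, 3.99 and 4.90 in WT iWAT, 0.393 and 0.338 in H1.2AKO BAT and 0.437 and 0.557 in WT BAT. The ratio of Cd8a to Cd4, both per length, was 2.20 and 2.64 in H1.2AKO iWAT and 2.15 and 2.23 in WT iWAT, and 1.46 and 0.902 in H1.2AKO BAT and 0.347 and 0.699 in WT BAT, where Cd8a had between 7 and 26 reads. All 3 coreceptor genes were called higher in iWAT, with log2 fold changes in H1.2AKO mice of 4.57 (standard error 0.22, adjusted p = 0.000131 by limma) for Cd8b1, 3.77 (0.25, adjusted p = 0.000258) for Cd8a and 2.68 (0.23, adjusted p = 0.000557) for Cd4. In WT mice they were 4.004 (0.22, adjusted p = 0.000175) for Cd8b1, 3.74 (0.25, adjusted p = 0.000279) for Cd8a and 2.31 (0.23, adjusted p = 0.000965) for Cd4, again by limma.

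Among the 6 signalling genes the adaptor Lat was the highest, with 42.3 and 36.6 FPKM in H1.2AKO iWAT, 36.2 and 43.2 in WT iWAT, 1.33 and 1.27 in H1.2AKO BAT and 0.711 and 1.35 in WT BAT. The 2 genotypes overlap in each depot. Its log2 fold change between iWAT and BAT was 4.47 (standard error 0.20, adjusted p = 2.35e-05 by limma) in H1.2AKO mice and 4.74 (0.20, adjusted p = 2.01e-05) in WT mice. The kinase Lck averaged 22.5 ± 2.06 FPKM in H1.2AKO iWAT and 20.6 ± 1.16 FPKM in WT iWAT (SD, n = 2 each), and the kinase Zap70 7.62 ± 1.61 and 6.48 ± 0.96 FPKM in the same groups. Skap1, an adaptor that couples the receptor to adhesion, Ubash3a, which dampens receptor signalling, and Themis, which acts in thymic selection, were the low genes of this role, at 0.448 to 1.72 FPKM over the 4 iWAT libraries and at most 0.207 FPKM in BAT. All 6 signalling genes were called higher in iWAT in both genotypes without the filter.

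The surface genes ran over the widest range. Thy1, which marks T cells and also fibroblasts and neurons in mice, had 52.5 and 50.9 FPKM in H1.2AKO iWAT, 46.3 and 52.4 in WT iWAT, 4.72 and 5.90 in H1.2AKO BAT and 6.05 and 7.02 in WT BAT. Its ratio of means between iWAT and BAT was accordingly low, 9.74 in H1.2AKO mice and 7.55 in WT mice, and its log2 fold change was 3.17 (standard error 0.13, adjusted p = 1.59e-05 by limma) in H1.2AKO mice and 2.83 (0.13, adjusted p = 2.28e-05) in WT mice. Cd2, an adhesion molecule, averaged 17.5 ± 0.213 FPKM in H1.2AKO iWAT and 16.6 ± 0.438 FPKM in WT iWAT (SD, n = 2 each), followed by Cd5, Cd6 and Cd27 at 3.07 to 8.68 FPKM. Cd40lg, the ligand with which helper T cells activate B cells, had a small depot difference, with 0.974 and 0.706 FPKM in H1.2AKO iWAT, 0.639 and 1.19 in WT iWAT, 0.276 and 0.218 in H1.2AKO BAT and 0.163 and 0.154 in WT BAT (log2 fold change 0.84, standard error 0.22, adjusted p = 0.0293 by limma in H1.2AKO mice, and 1.08, 0.22, adjusted p = 0.0122 in WT mice). In the filtered fit for H1.2AKO mice the call was lost without H1.2AKO BAT replicate 1 (adjusted p = 0.0573 by limma) and without H1.2AKO BAT replicate 2 (adjusted p = 0.0775). The costimulatory receptor Cd28 was the lowest of the 34, with 0.206 and 0.160 FPKM in H1.2AKO iWAT and 0.0978 and 0.0911 FPKM in WT iWAT. It was at 0 in both H1.2AKO BAT libraries, which at their depth allows up to 0.0338 and 0.0334 FPKM, and at 0.0443 and 0 FPKM in WT BAT. Over the summed reads of the group, with a floor of 3 reads, this makes iWAT at least 10.9-fold higher in H1.2AKO mice, on 49 reads.

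The naive genes had large depot differences as well. Ccr7, the chemokine receptor that guides cells into lymph nodes, had 23.8 and 19.2 FPKM in H1.2AKO iWAT, 15.6 and 17.3 in WT iWAT, 0.418 and 0.759 in H1.2AKO BAT and 0.411 and 0.259 in WT BAT. Tcf7, which encodes the transcription factor TCF-1, had 22.3 and 15.0 FPKM in H1.2AKO iWAT, 8.33 and 14.8 in WT iWAT, 0.787 and 0.494 in H1.2AKO BAT and 0.516 and 0.562 in WT BAT. These 2 genes reached the level of the CD3 chains in iWAT. Il7r, the receptor for a survival cytokine, had 12.2 and 6.11 FPKM in H1.2AKO iWAT, 4.47 and 5.70 in WT iWAT, 0.279 and 0.383 in H1.2AKO BAT and 0.359 and 0.240 in WT BAT. Lef1, a factor related to TCF-1, had 1.73 and 1.56 FPKM in H1.2AKO iWAT, 1.19 and 1.46 in WT iWAT, 0.0637 and 0.0236 in H1.2AKO BAT and 0 and 0.0296 in WT BAT, where a count of 0 allows up to 0.0235 FPKM. All 4 were called higher in iWAT in both genotypes, with log2 fold changes from 1.98 for Lef1 (standard error 0.14, adjusted p = 0.000278 by limma) to 4.35 for Ccr7 (0.19, adjusted p = 2.18e-05) in H1.2AKO mice. In WT mice they ran from 1.82 for Lef1 (0.14, adjusted p = 0.000387 by limma) to 4.34 for Ccr7 (0.20, adjusted p = 0.000125).

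The regulatory genes lay near or below 1 FPKM in iWAT, under the naive and CD8 genes. Foxp3 had 1.19 and 0.651 FPKM in H1.2AKO iWAT, 0.551 and 0.699 in WT iWAT, 0.0691 and 0.0513 in H1.2AKO BAT and 0.0170 and 0.0643 in WT BAT, the last 4 values resting on 1 to 4 reads. Ctla4, an inhibitory receptor, had 0.802 and 1.01 FPKM in H1.2AKO iWAT, 0.771 and 0.658 in WT iWAT, 0.0296 and 0.205 in H1.2AKO BAT and 0 and 0.0550 in WT BAT, where a count of 0 allows up to 0.0873 FPKM. Both were lower in every BAT library than in any iWAT library. Icos, a costimulatory receptor, had 0.608 and 0.429 FPKM in H1.2AKO iWAT, 0.393 and 0.651 in WT iWAT, 0.0402 and 0 in H1.2AKO BAT and 0.0790 and 0 in WT BAT, where the values of 0 allow up to 0.0597 FPKM in H1.2AKO BAT and 0.0561 FPKM in WT BAT. Foxp3, Ctla4 and Icos were called higher in iWAT in both genotypes, with log2 fold changes of 1.32, 1.198 and 0.97 in H1.2AKO mice (adjusted p = 0.00364, 0.00335 and 0.00621 by limma without the filter) and of 1.06, 1.204 and 0.91 in WT mice (adjusted p = 0.00900, 0.00356 and 0.00812).

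Il2ra, the high-affinity part of the interleukin 2 receptor that regulatory T cells carry, departed from the rest. It had 0.898 and 0.652 FPKM in H1.2AKO iWAT, 0.507 and 0.545 in WT iWAT, 0.338 and 0.466 in H1.2AKO BAT and 0.581 and 0.382 in WT BAT. The depots overlapped in WT mice and did not in H1.2AKO mice, and neither difference passed the threshold, with a difference of 0.50 on the log2 scale (SE 0.17, adjusted p = 0.0783 by limma) in H1.2AKO mice and 0.07 (0.17, adjusted p = 0.826) in WT mice. Its BAT level rested on 28 to 49 reads, many more than the 0 to 7 reads of the other 3 regulatory genes there. Il2rb, the receptor chain shared with memory and natural killer cells, had 16.0 and 10.7 FPKM in H1.2AKO iWAT, 10.6 and 9.88 in WT iWAT, 1.98 and 1.91 in H1.2AKO BAT and 1.63 and 1.24 in WT BAT, a ratio of means of 6.86 in H1.2AKO mice and 7.14 in WT mice. The transcription factors Bcl11b and Gata3, which set T cell identity and are also used by other cells, were called higher in iWAT in both genotypes without the filter, Bcl11b at 1.41 to 2.54 FPKM and Gata3 at 0.801 to 1.08 FPKM over the iWAT libraries.

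**Figure D2:**
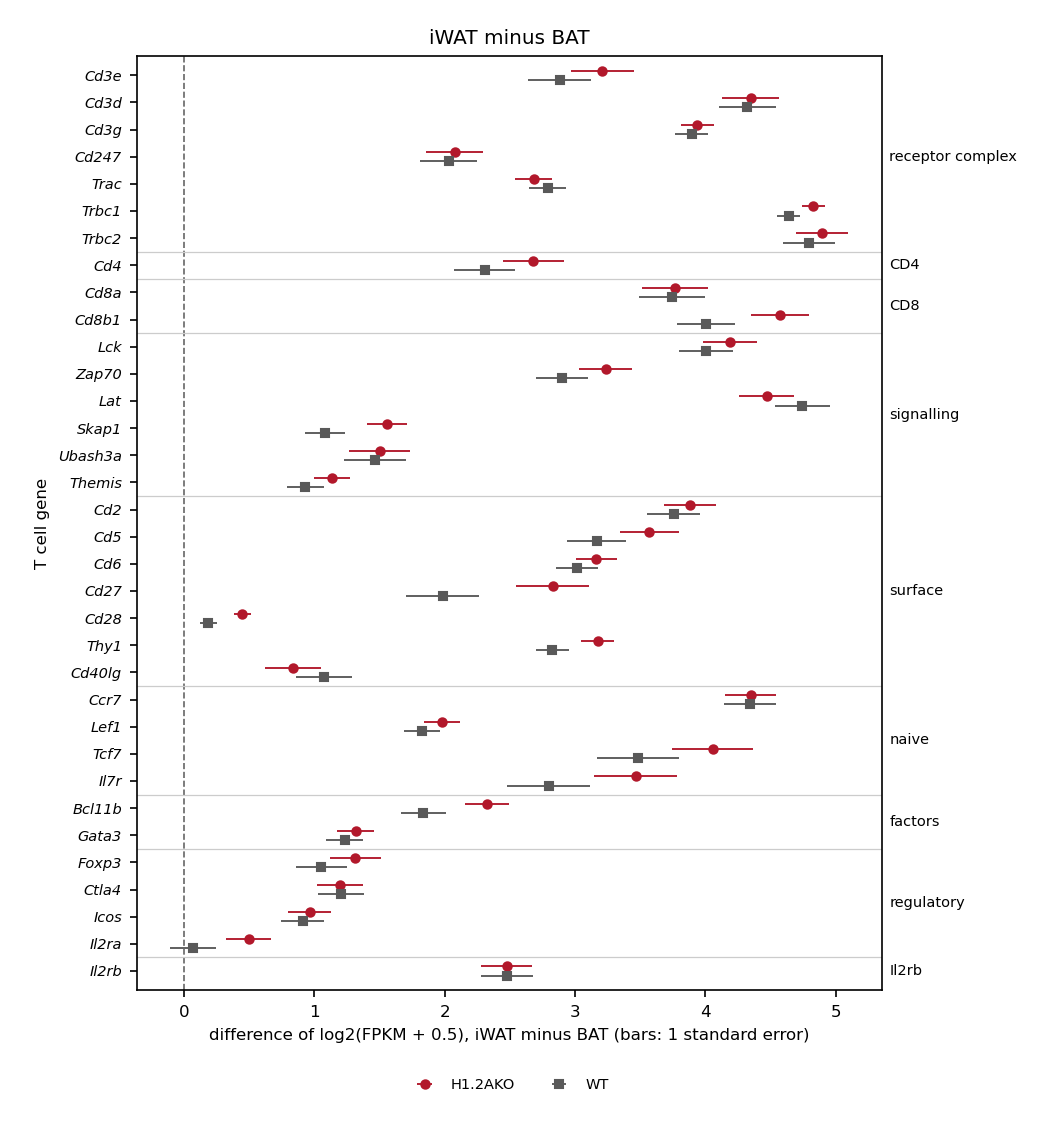
Difference of log2(FPKM + 0.5) between iWAT and BAT for each T cell gene in H1.2AKO mice (circles) and WT mice (squares), with bars of 1 standard error from the fit without a filter on low values. All points lie at or right of 0, from Il2ra and Cd28 at the left to Trbc1, Trbc2, Lat and Cd8b1 at the right, with Cd8b1 at 4.57 and Trbc2 at 4.89 in H1.2AKO mice.

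To ask whether loss of H1.2 in adipocytes goes with other T cell transcripts in iWAT, H1.2AKO iWAT was compared with WT iWAT. Most T cell genes had higher values in H1.2AKO iWAT, and 0 of the 33 tested passed the threshold, as did 0% of the 14349 genes tested by limma (6.01% had an unadjusted p under 0.05, and limma-voom on recovered reads also called 0). The log2 fold change was above 0 for 29 of the 33, against 49.2% of all tested genes, and the median was 0.29, against 0.00 over all tested genes. For 20 of the 33 both H1.2AKO libraries lay above both WT libraries, against 16.7% of all tested genes, and for 0 both lay below, against 20.5%. An unadjusted p under 0.05 with higher values in H1.2AKO was found for 5 of the 33, against 2.61% of all tested genes, and for 0 without H1.2AKO replicate 1 or without WT replicate 1. The genes share the same libraries and the same cells, so these counts are not 33 separate observations.

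The size of the difference depended on single libraries. H1.2AKO replicate 1 was the highest iWAT library for 25 of the 34 genes, and WT replicate 1 was the lowest for 26. Without H1.2AKO replicate 1 the median log2 fold change was 0.14, and leaving out H1.2AKO replicate 2 gave 0.44. Leaving out WT replicate 1 gave 0.18 and leaving out WT replicate 2 gave 0.34. H1.2AKO replicate 2 alone still lay above both WT libraries for 21 of the 34. WT replicate 1 is also the library with 195 FPKM of muscle genes against 3001 to 4543 FPKM in the other iWAT libraries. Adipocyte genes summed to 4687 and 4647 FPKM in H1.2AKO iWAT, against 5990 and 5325 FPKM in WT iWAT (10 genes), and macrophage genes to 1151 and 1106 FPKM in H1.2AKO iWAT, against 1269 and 1367 FPKM in WT iWAT (11 genes). Neither list overlapped between the genotypes, and the part of these levels in the result was not tested.

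The smallest unadjusted p belonged to Trac, for which both H1.2AKO libraries lay above both WT libraries (values above), with a difference of 0.52 on the log2 scale (SE 0.14, adjusted p = 0.623 by limma) and a 95% interval from 0.18 to 0.86. Next came Cd6, a surface receptor that tunes receptor signalling, with 7.38 and 6.90 FPKM in H1.2AKO iWAT, against 4.94 and 5.74 FPKM in WT iWAT (log2 fold change 0.39, standard error 0.15, adjusted p = 0.793 by limma). Skap1 had 1.07 and 1.09 FPKM in H1.2AKO iWAT, against 0.482 and 0.810 FPKM in WT iWAT (0.48, standard error 0.18, adjusted p = 0.799 by limma). Both groups were separate for these 3 genes, yet by less than the threshold over all genes requires. Bcl11b, the factor that commits precursors to the T lineage, had 2.54 and 1.92 FPKM in H1.2AKO iWAT, against 1.41 and 1.62 FPKM in WT iWAT (0.43, standard error 0.18, adjusted p = 0.818 by limma).

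The largest differences were those of the naive genes Il7r and Tcf7, at 0.72 (standard error 0.30, 95% interval from -0.0020 to 1.45) and 0.69 (0.30, from -0.03 to 1.41) on the log2 scale, with adjusted p = 0.824 and 0.832 by limma. For Il7r, H1.2AKO replicate 1 stood above the other 3 libraries, and for Tcf7 it stood highest with WT replicate 1 lowest. Other genes had values near 0. Cd3d had a log2 fold change of -0.04 (standard error 0.21), Lat of -0.01 (0.20), Cd40lg of -0.06 (0.23), Gata3 of -0.05 (0.17), Icos of 0.00 (0.20) and Thy1 of 0.07 (0.13). For 30 of the 33 genes the upper end of the 95% interval lay under 1.00 on the log2 scale, the exceptions reaching 1.45 at most, and these were Il7r, Tcf7 and Cd27.

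**Figure D3:**
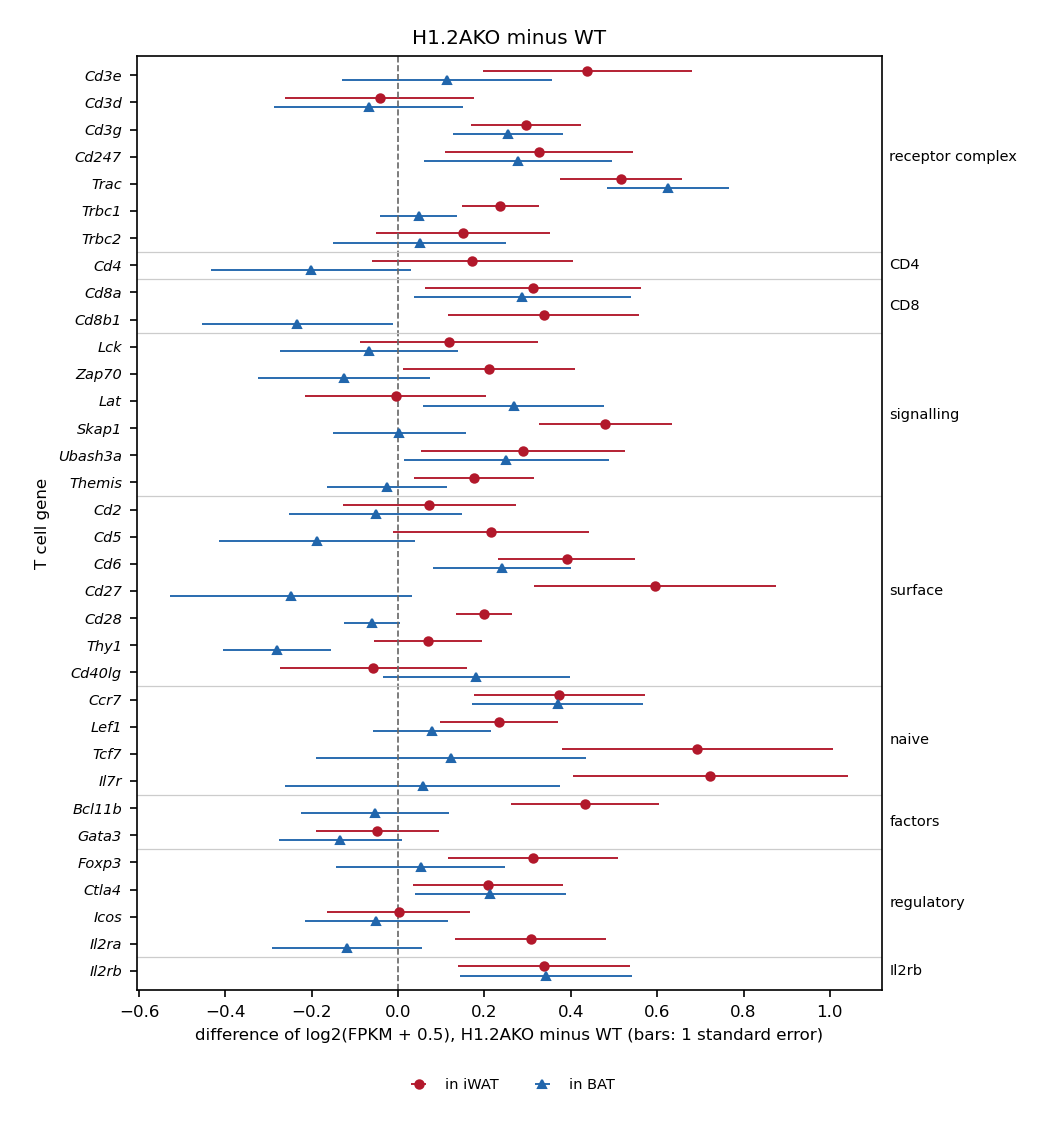
Difference of log2(FPKM + 0.5) between H1.2AKO and WT for each T cell gene in iWAT (circles) and BAT (triangles), with bars of 1 standard error from the fit without a filter on low values. Most iWAT points lie right of 0, up to 0.72 for Il7r, the BAT points scatter around 0, and only Trac lies above 0.50 in both depots.

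To compare naive, CD8 and regulatory T cell genes, a reference was subtracted from each. It was the mean log2(FPKM + 0.5) of Cd3d, Cd3e and Cd3g in the same iWAT library. For genes well above 0.5 FPKM this removes a change that all T cell genes share. For genes near that level, as the regulatory genes are, the added 0.5 shrinks their own change, so that too much is subtracted. On that scale the naive genes averaged -0.67 and -1.03 in H1.2AKO iWAT, against -1.27 and -0.99 in WT iWAT. The CD8 pair averaged -0.11 and -0.22 in H1.2AKO iWAT, against -0.39 and -0.12 in WT iWAT. Regulatory genes averaged -3.71 and -3.82 in H1.2AKO iWAT, against -3.76 and -3.72 in WT iWAT. The 2 genotypes overlapped in all 3 subsets. The differences between their means were 0.28 for the naive genes, 0.09 for the CD8 pair and -0.02 for the regulatory genes. That of the regulatory genes changed sign with a pseudocount of 0.1 (given below), so the 3 cannot be ranked.

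Subset genes differed among themselves more than the genotypes did. Ccr7 relative to the CD3 genes was 0.45 and 0.26 in H1.2AKO iWAT, against 0.18 and 0.24 in WT iWAT, without overlap. Icos was the other gene without overlap, at -4.00 and -4.15 in H1.2AKO iWAT, against -3.99 and -3.71 in WT iWAT. Tcf7 spread over 0.36 and -0.09 in H1.2AKO iWAT, against -0.68 and 0.03 in WT iWAT, and Il7r over -0.49 and -1.31 in H1.2AKO iWAT, against -1.51 and -1.28 in WT iWAT. No test was made of these relative levels, and an exact permutation test of 2 against 2 libraries cannot give a p below 0.333. With Trac in place of the CD3 genes the 3 differences became -0.011, -0.19 and -0.31, since Trac itself was higher in H1.2AKO iWAT.

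**Figure D4:**
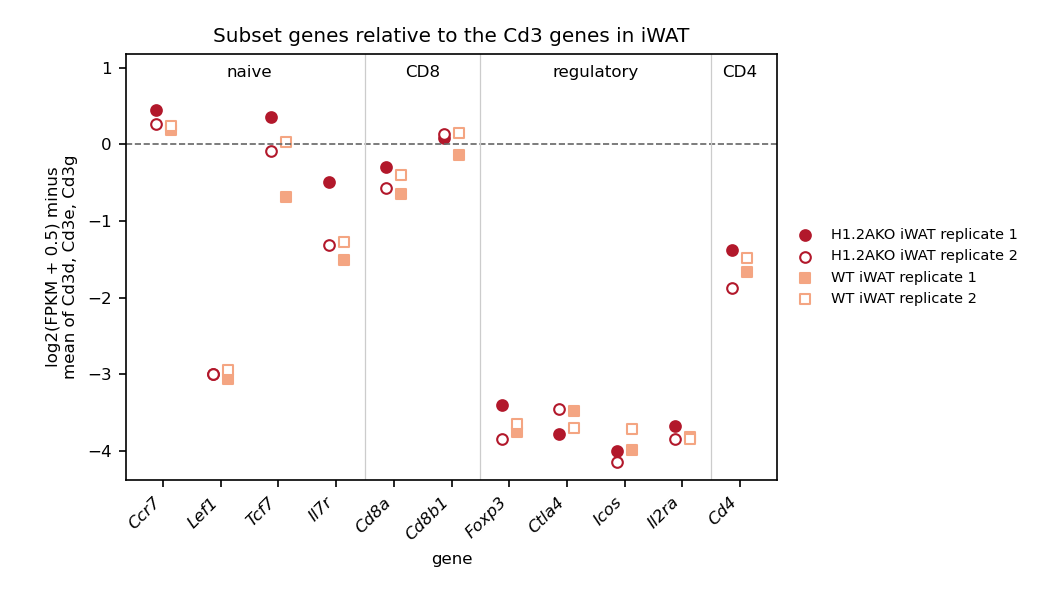
Level of naive, CD8, regulatory and Cd4 genes minus the mean of Cd3d, Cd3e and Cd3g, in log2(FPKM + 0.5), with 1 point for each of the 2 H1.2AKO and 2 WT iWAT libraries. Ccr7, Tcf7, Cd8a and Cd8b1 lie near the CD3 genes, the 4 regulatory genes lie more than 3.00 below them, and the genotypes overlap except for Ccr7 and Icos.

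The median differences of the T cell genes and of the B cell genes lay on opposite sides of 0 between the iWAT groups. Of the 33 tested T cell genes 4 were below 0, and 0 were called in either list. The 12 B cell genes, with Cd79a and Cd79b of the B cell receptor as the highest, summed to 328 and 294 FPKM in H1.2AKO iWAT, against 373 and 401 FPKM in WT iWAT. All 12 had a log2 fold change below 0 (median -0.19 by limma), whereas 49.2% of all tested genes were above 0. With any 1 library left out, 8 to 12 of the B cell genes were below 0. The T cell sum over the B cell sum was therefore 1.72 and 1.72 in H1.2AKO iWAT, against 1.16 and 1.18 in WT iWAT. Without the chain genes Trac, Trbc1 and Trbc2 it was 1.08 and 1.02 in H1.2AKO iWAT, against 0.701 and 0.743 in WT iWAT. The replicates of a genotype thus lay closer in this ratio than in the T cell sum itself. In BAT the order was the other way, with 7.53 and 5.42 in H1.2AKO BAT, against 9.77 and 8.12 in WT BAT, where the B cell genes summed to at most 5.60 FPKM.

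**Figure D5:**
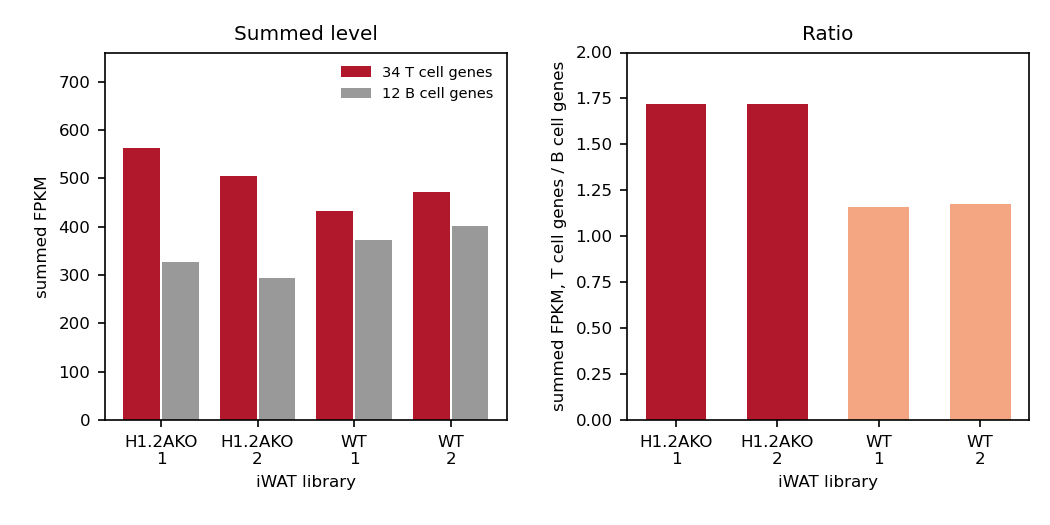
Left, summed FPKM of the 34 T cell genes and of 12 B cell genes in each iWAT library. Right, the ratio of the 2 sums, which is 1.72 in both H1.2AKO libraries and 1.16 and 1.18 in the WT libraries.

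In BAT H1.2AKO was compared with WT in the same way. Only 12 T cell genes reached a mean of 0.5 FPKM, and 0 of them passed the threshold, as did 0% of the 13190 tested genes by limma (12.4% had an unadjusted p under 0.05, and limma-voom on recovered reads called 17 genes, 0 of them T cell genes). Of the 12, 8 had a log2 fold change above 0, against 52.5% of all tested genes, and for 3 both H1.2AKO libraries lay above both WT libraries, against 22.4%, and for 1 below, against 18.9%. Over all 34 genes without the filter 19 were above 0 (46.6% of all genes above 0 in at least 1 library) and 15 below, with a median of 0.05. Trac again had the smallest p, on 55 and 45 reads in H1.2AKO BAT, against 31 and 34 reads in WT BAT, with a difference of 0.62 on the log2 scale (SE 0.14, adjusted p = 0.217 by limma). For Thy1 the difference was -0.28 (SE 0.13, adjusted p = 0.444), for Cd3g 0.25 (0.13, adjusted p = 0.474) and for Il2rb 0.34 (0.19, adjusted p = 0.520), all by limma. For these 4 genes the groups did not overlap.

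The genotype difference in iWAT was then set against that in BAT. The test of this interaction called 0 of 33 T cell genes and 0% of the 14945 genes tested by limma (5.61% had an unadjusted p under 0.05), so no T cell gene was shown to differ between the depots in its genotype difference. The term was above 0 for 28 of the 33, against 47.1% of all tested genes. By limma-voom it was above 0 for only 20 (52.99% of all genes) and with a pseudocount of 0.1 for 21 (47.2%). Without H1.2AKO iWAT replicate 1 it was so for 21 of 32 (47.5%). Only 12 T cell genes reached a mean of 0.5 FPKM in BAT, so most of the 33 entered through iWAT alone. The pseudocount shrinks their BAT difference toward 0. Their term therefore mostly repeats the iWAT difference, and the count of 28 is no separate result. Cd27, a costimulatory receptor, had the smallest p, at 0.84 on the log2 scale (standard error 0.38, adjusted p = 0.850 by limma). It had 7.52 and 4.53 FPKM in H1.2AKO iWAT, 3.07 and 4.45 in WT iWAT, 0.473 and 0.322 in H1.2AKO BAT and 0.495 and 0.634 in WT BAT. Bcl11b followed at 0.49 (0.25), Thy1 at 0.35 (0.18) and Cd8b1 at 0.57 (0.30), each with adjusted p = 0.850 by limma. In the BAT libraries Bcl11b had 3 to 13 reads and Cd8b1 3 to 11. For Trac, higher in H1.2AKO in both depots, the interaction term was -0.11 (0.20, adjusted p = 0.968 by limma).

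Other genes of the T cell receptor pathway were called mostly in the same direction. Of 29 further pathway genes, which are also used by other blood cells, 24 were called higher in iWAT of H1.2AKO mice (27.9% of all tested genes) and 27 in WT mice (28.1%), with 1 called lower in each. The phosphatase Ptpn6 had 36.7 and 31.0 FPKM in H1.2AKO iWAT, 34.4 and 41.1 in WT iWAT, 1.60 and 2.26 in H1.2AKO BAT and 2.03 and 2.54 in WT BAT (log2 fold change between depots 3.83 in H1.2AKO mice and 3.78 in WT mice). Csk, the kinase that restrains Lck, had 40.0 and 33.4 FPKM in H1.2AKO iWAT, 37.7 and 37.5 in WT iWAT, 14.1 and 11.2 in H1.2AKO BAT and 10.2 and 12.5 in WT BAT. Between the genotypes in iWAT 19 of the 29 were above 0 (49.2% of all tested genes) with a median of 0.11, and 0 were called.

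Further markers place these values among T cell states. Ccl5 and Nkg7, which effector and cytotoxic cells express, had 30.7 and 26.7 FPKM (Ccl5) and 21.5 and 18.8 FPKM (Nkg7) in H1.2AKO iWAT, against 26.8 and 25.4 FPKM (Ccl5) and 20.9 and 18.9 FPKM (Nkg7) in WT iWAT. Nkg7 overlapped between the genotypes, and Ccl5 overlapped as well. Of 10 further regulatory T cell genes, without the filter, 7 were called higher in iWAT of H1.2AKO mice (18.8% of all genes above 0) and 4 in iWAT of WT mice (18.7%), led by Tnfrsf4 with 6.66 and 5.93 FPKM in H1.2AKO iWAT, against 5.23 and 6.54 FPKM in WT iWAT. The recombinase genes Rag1 and Rag2, which mark immature thymocytes, were at 0 in all 8 libraries, which allows at most 0.0313 FPKM for Rag1 and 0.0604 FPKM for Rag2. The list of 6 thymocyte genes that holds them summed to 48.5 and 55.7 FPKM in H1.2AKO iWAT and 69.7 and 55.6 in WT iWAT. In BAT it summed to 52.4 and 57.2 FPKM in H1.2AKO mice and 62.1 and 65.1 in WT mice. In WT iWAT replicate 1, with the highest sum, 4 of the 6 (Arpp21, Ptcra, Rag1 and Rag2) were at 0. In WT BAT replicate 1, 4 of the 6 (Dntt, Ptcra, Rag1 and Rag2) were at 0. The sums thus rest on the remaining genes and cannot be read as a level of thymocytes. Of the 6 thymocyte genes, Dntt was above 0 in all 4 iWAT libraries and at 0 in all 4 BAT libraries. A count of 0 allows up to 0.0971 FPKM there. Ptcra was above 0 only in WT iWAT replicate 2 and WT BAT replicate 2. Markers of lymph node stroma were also higher in iWAT, with a sum over the 7 listed genes found of 69.8 and 61.6 FPKM in H1.2AKO iWAT, 91.8 and 93.1 in WT iWAT, 2.72 and 4.75 in H1.2AKO BAT and 3.01 and 6.36 in WT BAT, and Glycam1, a product of lymph node venules, was at 0 in all 4 BAT libraries. Their part in the depot difference was not tested.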

How the data were processed

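Whole-tissue poly-A RNA of iWAT and BAT was measured in 8 libraries, 2 per group. The authors deposited FPKM of every gene in 1 table that also holds lengths and positions. Per the submitters' processing notes, HISAT2 2.0.5 served as aligner, with mm10 and GRCm38.p6 as the builds named. Which counter, annotation and FPKM tool followed is not given in the sources used here. FPKM divided by a denominator of 0.873 to 1.33 times the summed reads, with the higher values in iWAT. Whole reads were recovered from FPKM and gene length for 100% of values above 0 within 0.01.

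FPKM was analysed as log2(FPKM + 0.5) with limma 3.58.1 in R 4.3.3, as 1 mean per group over 8 libraries with trended moderation. The fold changes are on this scale, which understates the change of low genes. Genes needed a mean of at least 0.5 FPKM over the 4 libraries compared, or in either tissue for the interaction. Benjamini-Hochberg adjustment covered all tested genes, with a threshold of 0.05. The fit was tested on simulated data with planted changes larger than the genotype differences of the T cell genes. Recovery of differences as small as those was not tested. No 2 replicates looked like copies of 1 library, since their chi-square divided by genes ran from 10.4 to 44.1. Intervals and limits at 0 (3 reads) cover counting error only or, for fold changes, the fitted spread. The members and lists were chosen with earlier results of these data known. Named are the receptor, coreceptor, naive and regulatory genes, the 4 members with the smallest p in each comparison, examples of other roles, and, of other lists, those with the highest level and the smallest p between depots. The genes Cd79a, Rag1, Rag2, Dntt, Ptcra, Glycam1 and Pou2f1 were named after their values were seen. A number shared by replicates names no common animal, so no pairing was used. Exons of 10 members overlap another gene. Alternatives were other pseudocounts, filters, scaling, moderation, libraries, a replicate block and limma-voom on recovered reads. A gene of a further list is not reported here.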

Additional observations from a re-analysis of the deposited data

How the results depend on the processing

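Counts of called T cell genes moved by less than 1.5 times under every alternative run in all 5 comparisons, and 0 were called between the genotypes or for the interaction under any of them. In H1.2AKO mice Il2ra was called between the depots by limma-voom, with adjusted p from 0.0335 to 0.219 over its alternatives, and Cd40lg lost its call without either BAT library, with adjusted p from 0.0129 to 0.0775. With the replicate block 0 T cell genes were called between the genotypes in iWAT or in BAT, and 28 in H1.2AKO mice and 27 in WT mice between the depots. Same-numbered iWAT libraries of the genotypes deviated in opposite directions (r = -0.14), and the crossed pairing, added after the data were examined, also called 0.

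The size of the depot difference depended on the scale. Its median over the tested T cell genes, 3.21 in H1.2AKO mice and 2.89 in WT mice, was 4.03 and 3.67 with a pseudocount of 0.1, 2.74 and 2.48 with a pseudocount of 1, 3.57 and 3.33 with a mean of at least 1 FPKM, and 4.57 and 4.42 by limma-voom. Without a filter it was 3.00 in H1.2AKO mice. Leaving out 1 library gave from 3.12 to 3.56 in H1.2AKO mice and from 2.87 to 3.13 in WT mice. Between the genotypes in BAT the median of 0.08 became 0.12 with a pseudocount of 0.1 and 0.16 with a mean of at least 1 FPKM, and leaving out 1 library gave from 0.027 (without WT replicate 1) to 0.20 (without WT replicate 2). With Trac as the reference the subset differences in iWAT were -0.011 for naive, -0.19 for CD8 and -0.31 for regulatory genes, and that of the regulatory genes was 0.067 with a pseudocount of 0.1. The planned count-model alternative was not run, since the deposited unit is FPKM. With 2 libraries per group and under 50 reads for 31 T cell genes in BAT, small differences there are not detectable.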

Other observations

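Tested genes of the gamma-delta T cell list lay lower in H1.2AKO iWAT, while most of the tested T cell genes described above lay higher. Some genes of that list encode the alternative receptor of a lineage that lives in barrier tissues and fat, and others are markers. Tcrg-C2, a constant part of the gamma chain, had 1.56 and 1.56 FPKM in H1.2AKO iWAT, against 2.68 and 2.87 FPKM in WT iWAT (log2 fold change -0.67, standard error 0.19, adjusted p = 0.630 by limma). Tcrg-C4 had 0.540 and 0.381 FPKM in H1.2AKO iWAT, against 1.01 and 1.01 FPKM in WT iWAT (-0.66, standard error 0.21, adjusted p = 0.683 by limma). For both genes the H1.2AKO libraries lay below the WT libraries, as for 20.5% of all genes tested in iWAT, and neither passed the threshold. Tcrg-C1 had 1.43 and 1.04 FPKM in H1.2AKO iWAT, against 2.02 and 3.41 FPKM in WT iWAT, and Cd163l1, which marks gamma-delta T cells in mice, had 1.44 and 1.45 FPKM in H1.2AKO iWAT, against 2.04 and 2.33 FPKM in WT iWAT. In BAT Tcrg-C2 had 0.411 and 0.407 FPKM in H1.2AKO, against 0.808 and 1.40 FPKM in WT (-0.80, standard error 0.19, adjusted p = 0.239 by limma). The sums over the 8 listed genes found overlapped in BAT, at 22.3 and 24.6 FPKM in H1.2AKO and 21.9 and 25.9 in WT. Tcrg-C1 was at 0 in both H1.2AKO BAT libraries and in WT BAT replicate 1, where Tcrg-C4 was at 0 as well. Tcrg-C2, Tcrg-C4, Tcrg-C1 and Cd163l1 were named after their values were seen. The 7 tested genes of their list had log2 fold changes below 0 in iWAT, from -0.87 to -0.01, with 0 called. Of all genes tested in iWAT, 49.2% were above 0.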
